A study of Mus musculus with 20 samples.

Results

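The transcripts described here encode 10 proteins of the muscle basal lamina and its acetylcholinesterase, chosen by gene symbol from the 26722 genes of the count table. They are the laminin α chains Lama2, Lama4 and Lama5, the β chains Lamb1 and Lamb2, the γ chain Lamc1, nidogen 2 (Nid2), perlecan (Hspg2), the collagen tail of acetylcholinesterase (Colq) and acetylcholinesterase itself (Ache). All 10 were in the table, and all 10 passed the filter on low counts that left 14605 genes for testing.

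Total RNA was sequenced from C2C12 cells, mouse myoblasts of an established line that form multinucleated myotubes when serum is lowered. Myotubes were grown for 5 days in horse serum medium and then kept for 16 h with an antibody at 7.7 nM, with or without neural agrin, the nerve-derived protein that activates the muscle receptor kinase MuSK through its co-receptor Lrp4. Each of the 5 treatments had 4 libraries, which the series' design text calls biological replicates. The controls received b12, a human IgG4 that the labels name as the negative control antibody. The bivalent group received 13-3B5, a human IgG4 described as activating MuSK, without agrin. The agrin group received 0.1 nM agrin and b12. The other 2 groups received 0.1 nM agrin and either 13-3B5xb12 or 11-3F6xb12, monovalent antibodies described as inhibiting MuSK. All groups therefore received an antibody, and no group was left untreated. All libraries come from a single cell line.

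The basal lamina is the sheet of extracellular matrix that surrounds each muscle fibre. Its network is built from laminins, each a trimer of an α, a β and a γ chain, and from type IV collagen, which nidogens and perlecan link together. At the neuromuscular synapse the sheet runs through the cleft between nerve and muscle and differs in composition: laminin β2 and the α4 and α5 chains are concentrated there, and acetylcholinesterase, the enzyme that ends transmission by breaking down acetylcholine, is anchored to perlecan by its collagen tail ColQ, which also binds MuSK. Laminin α2 is the main α chain of the fibre's whole surface, and laminin γ1 is the γ chain of nearly all muscle laminins.

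Promoter sequences from RefSeq (GRCm38.p6) were available for 6 of the 10 genes and were read because several synaptic genes are known to carry an N-box, the motif CCGGAA bound by ETS factors. Those of Ache, Hspg2 and Lamb2 are shown. Ache and Lamb2 encode the enzyme and the laminin chain most closely tied to the synapse. Hspg2 had the smallest p-value of the members for any difference among treatments, in the fit without replicate number. Each is the longest stretch, within the 250 bases before the RefSeq start site, that is free of annotated exons of the gene, written 5′ to 3′ on the strand of the gene. The Ache stretch lies within the annotated span of its gene, which starts at chr5:137287519. The Lama2 window, not shown, also lies within the annotated span of its gene. Capitals mark GC-boxes, the letters GGGCGG on either strand.
Ache, chr5:137288058-137288253, plus strand: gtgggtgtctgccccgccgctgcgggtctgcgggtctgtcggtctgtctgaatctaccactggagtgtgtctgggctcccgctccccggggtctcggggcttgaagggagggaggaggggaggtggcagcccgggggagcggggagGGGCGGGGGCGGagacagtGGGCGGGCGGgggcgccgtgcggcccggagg
Hspg2, chr4:137468553-137468768, plus strand: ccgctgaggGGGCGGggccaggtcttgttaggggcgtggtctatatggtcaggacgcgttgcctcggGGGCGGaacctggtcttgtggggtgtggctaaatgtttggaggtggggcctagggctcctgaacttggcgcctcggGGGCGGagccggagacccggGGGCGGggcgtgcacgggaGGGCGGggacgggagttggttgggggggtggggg
Lamb2, chr9:108479612-108479735, plus strand: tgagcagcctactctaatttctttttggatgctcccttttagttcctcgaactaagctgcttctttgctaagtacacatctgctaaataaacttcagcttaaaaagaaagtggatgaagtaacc

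Within the full 250 bases, the Ache window held 4 GC-box matches, which partly overlap one another, and the Hspg2 window held 5. The Lamb2 window held 0. GC content was 73.6% for Ache, 70.0% for Hspg2 and 43.6% for Lamb2, beside a median of 52.4% over the 32851 promoters of the table. A GC-box was present in 32.7% of those promoters. Of the other genes with an entry, Lama5 held 4 matches, Lamb1 held 2 and Lama2 held 0. The letters CCGGAA, read on both strands, were in none of the 6 windows and in 12.03% of all promoters. Only these windows were read, so an N-box elsewhere in a gene would be missed. With the motif in so small a share of promoters, 6 windows are too few to show a lack of it. The E-box CANNTG, the motif of the myogenic bHLH factors, was in 66.2% of all promoters. It had 2 matches for Lama5, 2 for Lamb1, 1 for Ache, 1 for Lamb2, 1 for Lama2 and 0 for Hspg2. A match of letters describes the sequence only.

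Sequencing depth was similar throughout, with 18424881 to 23343903 counts per library. The lowest level called detectable, 3 counts, corresponds to 0.129 to 0.163 CPM by raw library totals, a floor that covers counting error only. CPM expresses each count relative to the total of its library, and the levels given here also use TMM factors. The 9 myotube markers looked at were above it in every library, with a summed level of 7785 to 9430 CPM. Fibroblast markers, which myogenic cells also express in part, summed to 745 to 1037 CPM. Markers of dividing or undifferentiated myoblasts summed to 133 to 216 CPM. Endothelial markers summed to at most 0.776 CPM and macrophage markers to at most 1.86 CPM. Liver transcripts (Alb, Apoa1 and Ttr) reached 6.92 CPM in agrin replicate 3. In bulk RNA, fewer cells of a type and less RNA per cell cannot be told apart. Control replicate 2 and agrin + 13-3B5xb12 replicate 1 stood apart, because long transcripts exceeded short ones there by 0.37 and 0.44 on the log2 scale relative to the mean of all libraries. In control replicate 2 all 10 members were above their own mean over the libraries, and in agrin + 13-3B5xb12 replicate 1 this held for 7 of 10. The part of transcript length in those levels was not tested. Values without 1 or both of them are given for some of the differences.

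Laminin β1 and β2 transcripts were the most abundant of the group and those of acetylcholinesterase the least. Levels were compared between genes per kilobase (kb) of the longest protein-coding transcript of GENCODE M21. Median levels over the 20 libraries were 26.0 CPM per kb for Lamb1, 18.9 for Lamb2, 15.6 for Nid2, 12.7 for Lama2, 11.6 for Lamc1, 9.73 for Lama5, 8.10 for Hspg2, 4.69 for Lama4, 1.41 for Colq and 0.452 for Ache. Within single libraries, Lamb1 was above Lamb2 in 20 of 20, and Hspg2 above Lama4, Lama4 above Colq, and Colq above Ache also in 20 of 20. The middle of the order was less firm: Nid2 was above Lama2 in 14 of 20 libraries, Lama2 above Lamc1 in 17 of 20 and Lamc1 above Lama5 in 17 of 20. The length used decides part of this order. With all annotated exon bases of a gene as its length, Lamb1 was above Lamb2 in 1 of 20 libraries and Lama2 above Lama5 in 0 of 20, against 20 of 20 for Lama2 above Lama5 by coding transcript. By exon bases, Lama2 was also above Lamc1 in 0 of 20, Nid2 above Lama2 in 20 of 20 and Lamc1 above Lama5 in 14 of 20.

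**Figure D1:**
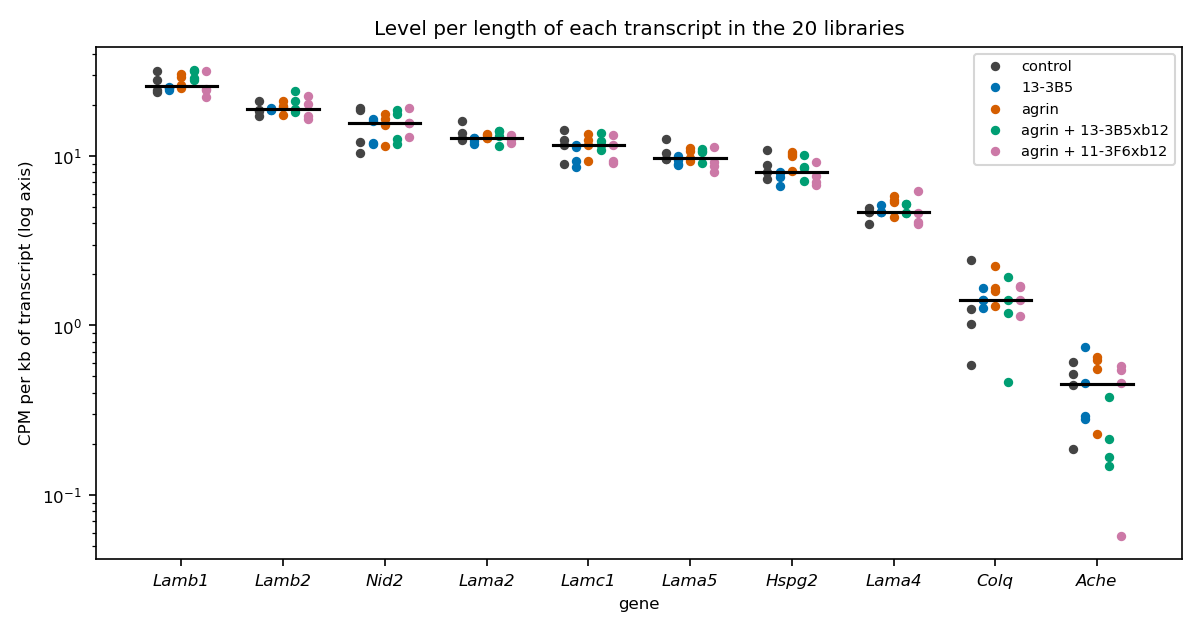
Level of each transcript in CPM per kb of its longest protein-coding transcript (log axis). Each point is 1 of 20 libraries, coloured by treatment, and the black line is the median; the points run from about the 26.0 CPM per kb of Lamb1 down to the 0.452 of Ache.

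The make-up of the laminin chains was close to constant. By coding transcript length, Lama2 made up 46.8% ± 1.83 (SD, n = 20 libraries) of the summed α2, α4 and α5 transcripts, Lama5 35.7% ± 1.28 and Lama4 17.5% ± 1.70. Lamb2 made up 41.7% ± 2.05 of the summed β1 and β2 transcripts. By treatment, the Lamb2 share was 41.1% ± 1.71 (SD, n = 4) in controls, 42.8% ± 0.530 with bivalent 13-3B5, 41.2% ± 3.19 with agrin, 40.5% ± 1.72 with agrin + 13-3B5xb12 and 42.7% ± 2.20 with agrin + 11-3F6xb12. These means lie within the spread between libraries. The Lama4 share was 15.9% ± 1.14 in controls, 18.1% ± 0.746 with bivalent 13-3B5, 18.4% ± 1.36 with agrin, 17.4% ± 2.06 with agrin + 13-3B5xb12 and 17.6% ± 2.28 with agrin + 11-3F6xb12, so that all 4 means were above the control mean, with or without agrin; these shares were not tested. By exon bases the shares were 38.2% for Lama2, 12.1% for Lama4, 49.6% for Lama5 and 53.1% for Lamb2.

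No member passed the test between treatments in any of the 8 comparisons, made with edgeR's quasi-likelihood F-test and adjusted over all 14605 genes. The background was equally empty: 0% of all genes passed an adjusted p of 0.05 in each comparison and in the test of any difference among the 5 treatments. The Wald test of DESeq2 also called 0 members in each comparison. At an unadjusted p under 0.05, 2.25% of all genes passed the test of any difference, and Hspg2 alone did so among the 10 members (unadjusted p = 0.0326, adjusted p = 1.00). With replicate number in the fit no member did, the smallest unadjusted p being 0.0716 for Lamb1 and 0.0842 for Hspg2. In the 4 comparisons where every same-numbered pair of libraries correlated above 0.1, the replicate block left 0 members past the adjusted threshold, with 2 of all genes (0.0137%) past it in agrin + 11-3F6xb12 against agrin. The median standard error of a member's log2 fold change was 0.12 in each comparison. In agrin minus control it was 0.34 for Colq and 0.56 for Ache. Differences well above the standard error could also go undetected. Hspg2 at -0.37 in bivalent 13-3B5 minus agrin did not pass the adjustment over all genes. The levels of each transcript are given below by role, and the plot of levels by treatment shows them all.

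**Figure D2:**
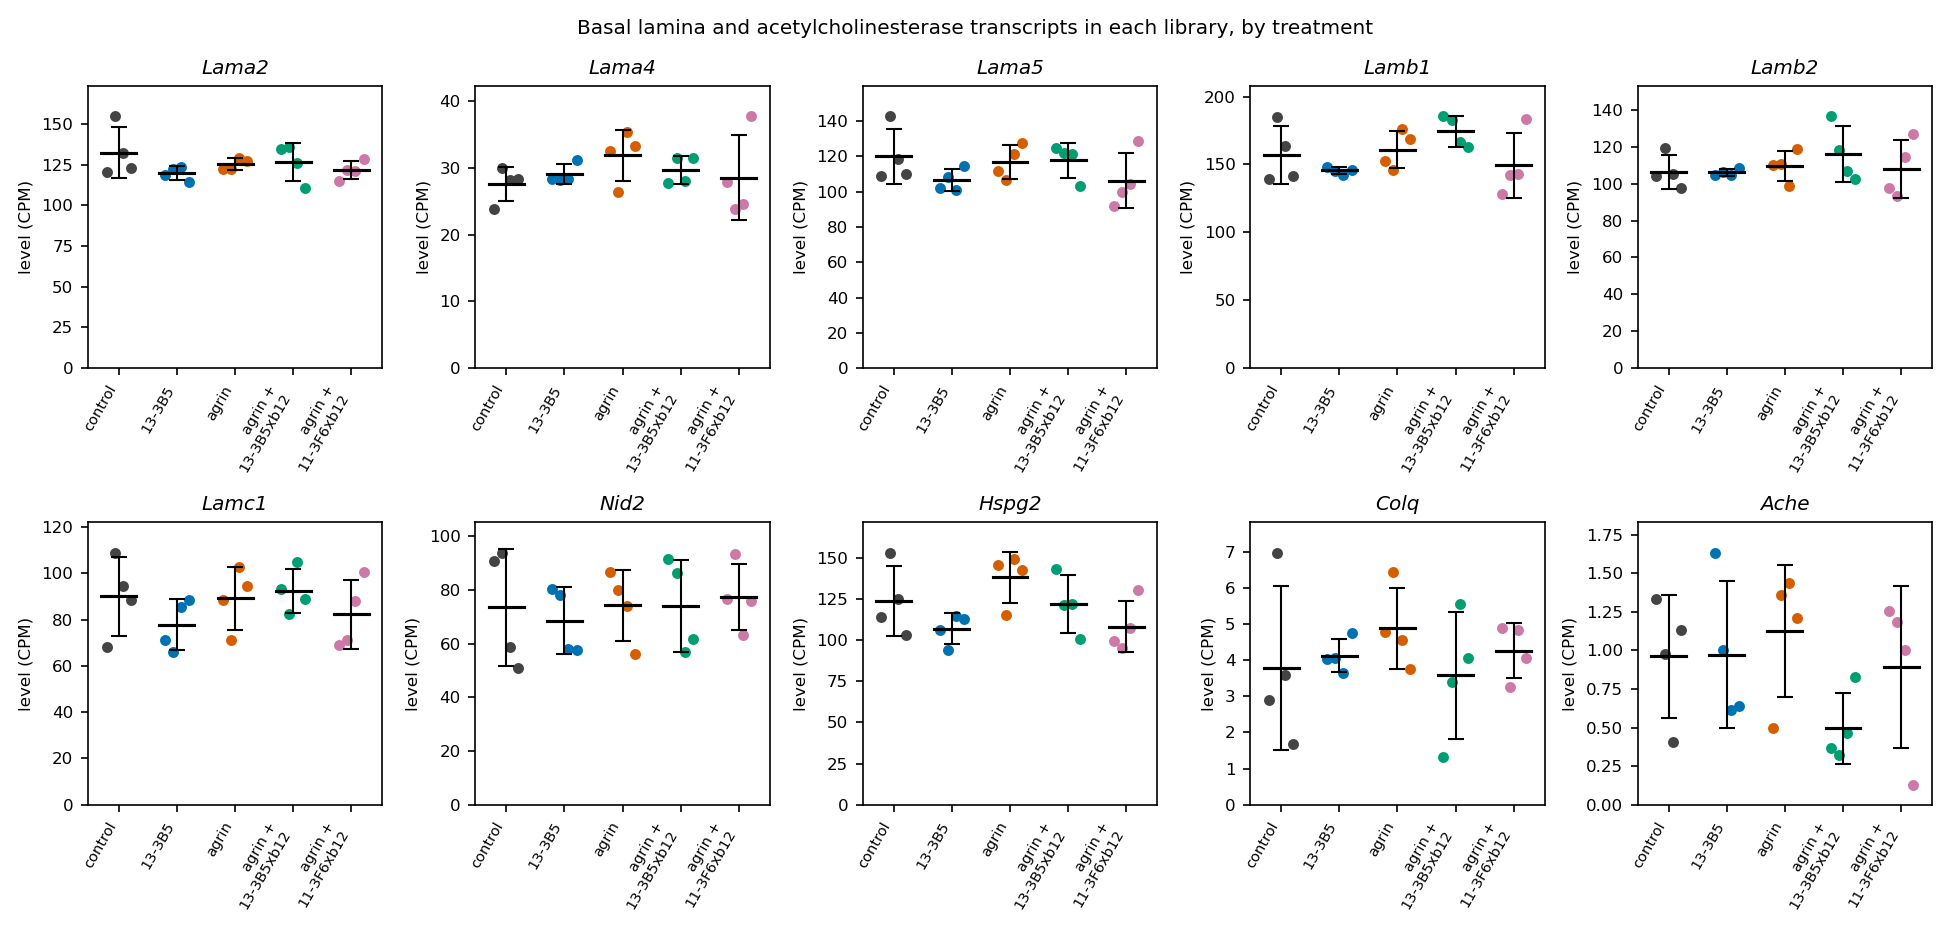
Level (CPM) of the 10 transcripts in each library by treatment, with the replicate numbers 1 to 4 from left to right within a treatment, and the mean (line) and SD (bars) of 4 libraries. The groups overlap in nearly every panel; the agrin libraries of Hspg2 have a mean of 138 CPM and those of bivalent 13-3B5 a mean of 107 CPM.

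Among the α chains, Lama2 (chr10:26980036-27619758, minus strand) was the steadiest member, with a coefficient of variation of 7.62% over the 20 libraries. Its levels in replicates 1 to 4 were 120, 155, 132 and 123 CPM in controls, 119, 122, 124 and 114 CPM with bivalent 13-3B5, and 122, 122, 129 and 127 CPM with agrin. They were 135, 136, 126 and 111 CPM with agrin + 13-3B5xb12 and 115, 122, 121 and 129 CPM with agrin + 11-3F6xb12. Control replicate 2, one of the libraries that stood apart, was the highest of all, and every treatment overlapped the control range. Lama4 (chr10:38965515-39110188, plus strand), a chain of synaptic and blood vessel laminins, was the lowest laminin chain at 27.6 ± 2.60 CPM in controls (SD, n = 4), 29.0 ± 1.49 with bivalent 13-3B5, 31.9 ± 3.83 with agrin, 29.7 ± 2.101 with agrin + 13-3B5xb12 and 28.5 ± 6.39 with agrin + 11-3F6xb12. The wide spread of the last group came from replicate 4 at 37.8 CPM, the highest of all libraries, above the group's other libraries at 23.9 to 27.9 CPM. Lama5 (chr2:180176373-180225859, minus strand), a chain of adult synaptic laminin, was at 120 ± 15.7, 107 ± 6.16, 117 ± 9.40, 118 ± 9.87 and 106 ± 15.7 CPM in the same order of treatments. Agrin minus control was -0.08 on the log2 scale for Lama2 (SE 0.08), 0.21 for Lama4 (SE 0.12, 95% interval -0.04 to 0.45) and -0.04 for Lama5 (SE 0.09).

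Lamb1 (chr12:31265234-31329644, plus strand), the β chain of laminins outside the synapse, was at 139, 185, 164 and 142 CPM in control replicates 1 to 4 and at 148, 145, 142 and 146 CPM with bivalent 13-3B5. It was at 153, 146, 176 and 169 CPM with agrin. With agrin + 13-3B5xb12 it was at 185, 183, 167 and 163 CPM, and with agrin + 11-3F6xb12 at 128, 142, 143 and 183 CPM. Of the last 4 libraries, 3 were below all 4 with 13-3B5xb12, and replicate 4 lay within their range. The 11-3F6xb12 group was lower by a log2 difference of -0.22 (SE 0.09, 95% interval -0.42 to -0.03, unadjusted p = 0.0246, adjusted p = 0.992), and lower in 3 of 4 libraries of the same number. Of all genes, 4.22% had an unadjusted p under 0.05 in this comparison of both monovalent antibodies. Without agrin + 13-3B5xb12 replicate 1, which stood apart, the difference was -0.19. Lamb2 (chr9:108479736-108490530, plus strand), the β chain of synaptic laminins, had group means of 106 ± 9.18, 106 ± 1.64, 110 ± 8.15, 116 ± 15.1 and 108 ± 15.6 CPM from controls to agrin + 11-3F6xb12. Agrin minus control was 0.03 for Lamb1 (SE 0.09, 95% interval -0.16 to 0.23) and 0.04 for Lamb2 (SE 0.09, 95% interval -0.15 to 0.23).

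Lamc1 (chr1:153218922-153332786, minus strand), the γ chain shared by these laminins, was at 68.2, 109, 94.4 and 88.5 CPM in control replicates 1 to 4, at 71.1, 65.9, 85.7 and 88.5 CPM with bivalent 13-3B5 and at 88.4, 71.0, 103 and 94.6 CPM with agrin. It was at 93.3, 82.6, 105 and 88.7 CPM with agrin + 13-3B5xb12 and at 68.9, 71.3, 88.0 and 101 CPM with agrin + 11-3F6xb12. For Lamc1, agrin minus control was -0.01 (SE 0.15), and the 5 groups overlapped. Control replicate 2 was again the highest library.

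Perlecan, the heparan sulphate proteoglycan that holds ColQ in the matrix, had the smallest p-value for treatment among the members in the fit without replicate number, and the second smallest, after Lamb1, in the fit with it. Hspg2 (chr4:137468769-137570630, plus strand) was at 146, 115, 149 and 142 CPM in agrin replicates 1 to 4 and at 106, 94.2, 115 and 113 CPM with bivalent 13-3B5. Its levels were 114, 153, 125 and 103 CPM in controls, 143, 121, 122 and 101 CPM with agrin + 13-3B5xb12 and 99.4, 95.2, 108 and 130 CPM with agrin + 11-3F6xb12. The bivalent 13-3B5 and agrin libraries did not overlap, by a narrow margin between the highest of the first (114.8 CPM) and the lowest of the second (115.0 CPM). Groups that do not overlap occurred in 2.38% of all genes in that comparison. Bivalent 13-3B5 minus agrin was -0.37 on the log2 scale (SE 0.12, 95% interval -0.62 to -0.12, lower in 4 of 4 libraries of the same number, unadjusted p = 0.00599, adjusted p = 1.00), with 2.39% of all genes at an unadjusted p under 0.05. Agrin + 11-3F6xb12 minus agrin was -0.35 (SE 0.12, 95% interval -0.60 to -0.10, lower in 4 of 4, unadjusted p = 0.00825, adjusted p = 1.00), with 3.33% of all genes at that level. Both differences use the same agrin libraries, and neither passed the adjustment over all genes. Without agrin replicate 3, the library with liver transcripts, they were -0.33 and -0.31. Agrin minus control was 0.16 (SE 0.12, 95% interval -0.09 to 0.41), 0.27 without control replicate 2 and 0.076 without control replicate 4. The difference of agrin + 13-3B5xb12 minus agrin was -0.18 (SE 0.12), and -0.27 without agrin + 13-3B5xb12 replicate 1.

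Colq and Ache were expressed at the low end, and their spread was the widest. Colq (chr14:31523082-31591343, minus strand) had 29 to 150 counts per library. It was at 2.91, 6.97, 3.58 and 1.67 CPM in control replicates 1 to 4, at 4.03, 4.05, 3.64 and 4.75 CPM with bivalent 13-3B5 and at 4.77, 6.43, 4.55 and 3.75 CPM with agrin. With agrin + 13-3B5xb12 it was at 1.325, 3.39, 5.56 and 4.06 CPM, and with agrin + 11-3F6xb12 at 4.88, 3.26, 4.83 and 4.06 CPM. The highest control library, replicate 2, is one of those that stood apart, and the lowest library of all, agrin + 13-3B5xb12 replicate 1, is the other. For Colq, agrin minus control was 0.36 (SE 0.34, 95% interval -0.34 to 1.07), 0.84 without control replicate 2 and 0.11 without control replicate 4. Ache (chr5:137287519-137294466, plus strand) had 3 to 34 counts per library.

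In control replicates 1 to 4 the Ache level was 1.34, 0.976, 0.409 and 1.13 CPM, with bivalent 13-3B5 it was 1.63, 1.00, 0.615 and 0.642 CPM, and with agrin 0.4999, 1.36, 1.43 and 1.21 CPM. With agrin + 13-3B5xb12 it was 0.365, 0.323, 0.467 and 0.829 CPM, and with agrin + 11-3F6xb12 it was 1.26, 1.19, 1.00 and 0.125 CPM. The last value rests on 3 counts, the floor of detection. The agrin + 13-3B5xb12 libraries had the lowest mean, 0.496 ± 0.230 CPM (SD, n = 4), against 1.13 ± 0.428 CPM with agrin, and were the lower in 4 of 4 libraries of the same number, although the ranges overlapped. That difference was the largest of any member, -1.17 on the log2 scale with a 95% interval of -2.36 to 0.03 (adjusted p = 0.999), and -1.04 without agrin + 13-3B5xb12 replicate 1. Agrin minus control was 0.22 (SE 0.56, 95% interval -0.93 to 1.37), an interval that holds changes from 0.527-fold to 2.58-fold.

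Over the other comparisons the members are described by their ranges. Agrin minus control had a member median of 0.04 on the log2 scale, beside 0.00 over all genes, with 7 of 10 above 0, and 0 of 10 at an unadjusted p under 0.05 (2.85% of all genes). Bivalent 13-3B5 minus control ran from -0.21 (Hspg2) to 0.12 (Colq) with 0 of 10 at that level (2.77% of all genes). Agrin + 13-3B5xb12 minus agrin ran from -1.17 (Ache) to 0.12 (Lamb1), with 0 of 10 (3.83% of all genes). Agrin + 13-3B5xb12 minus control ran from -0.94 (Ache) to 0.15 (Lamb1), with 0 of 10 (2.39% of all genes), and agrin + 11-3F6xb12 minus control from -0.20 (Hspg2) to 0.17 (Colq), with 0 of 10 (3.25% of all genes). In bivalent 13-3B5 minus agrin all 10 members were below 0, with a median of -0.14 beside 0.00 over all genes. In agrin + 11-3F6xb12 minus agrin 9 of 10 were below 0, with a median of -0.13 beside -0.0033 over all genes. These comparisons share the agrin or the control libraries. Members were also high together in single libraries, so their signs do not count as independent. In agrin replicates 3 and 4, 9 and 8 of the 10 members were above their own mean, and in agrin + 11-3F6xb12 replicate 4 this held for 9 of 10.

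**Figure D3:**
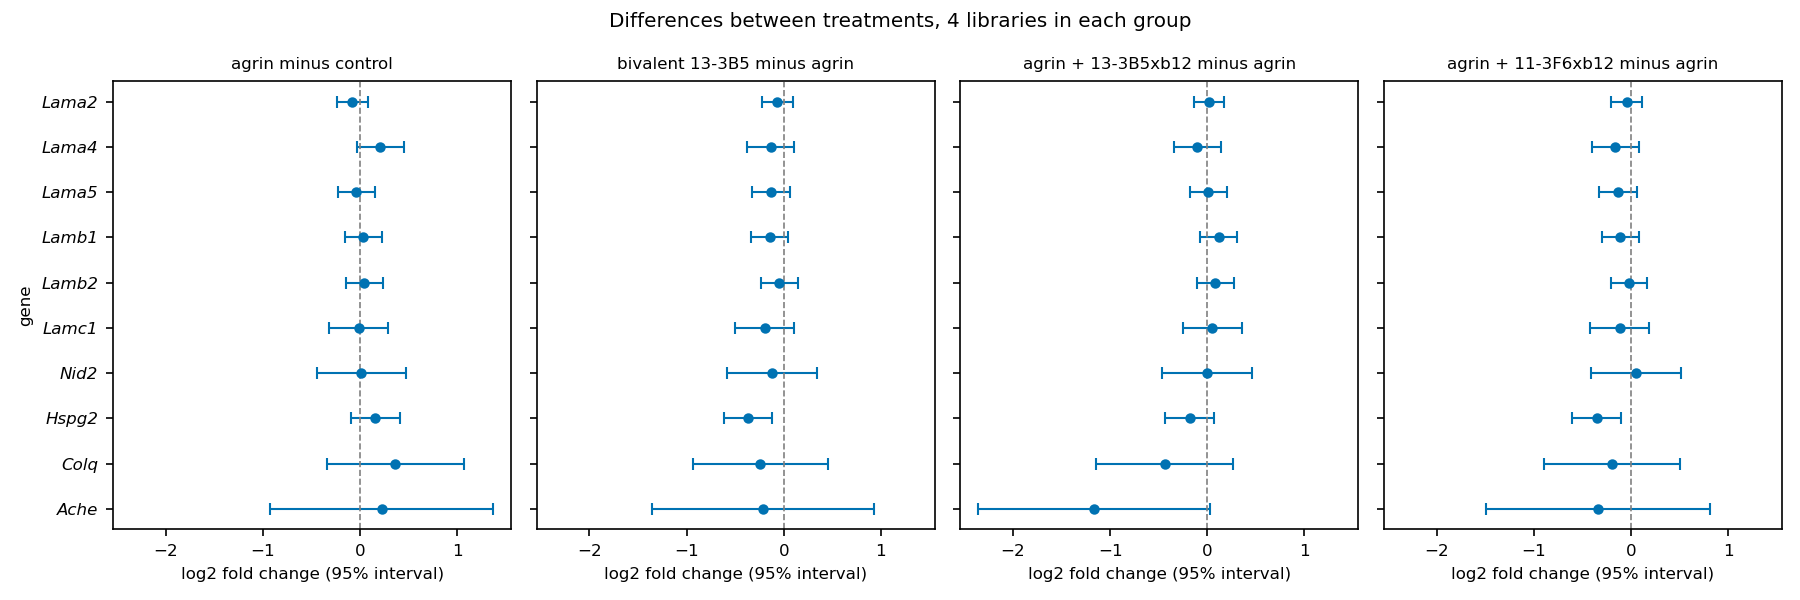
Log2 fold change of each member in 4 comparisons, with the 95% interval from edgeR's quasi-likelihood fit (4 libraries in each group, 20 in the fit). Hspg2 alone has intervals that leave out 0, at -0.37 for bivalent 13-3B5 minus agrin and -0.35 for agrin + 11-3F6xb12 minus agrin; the intervals of Colq and Ache are the widest.

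Nidogen 2, the linker between laminin γ1 and type IV collagen, differed between libraries of different replicate number and not detectably between treatments. Nid2 (chr14:19751265-19811787, plus strand) was at 90.7, 93.9, 58.9 and 51.0 CPM in control replicates 1 to 4, at 80.5, 78.2, 58.0 and 57.6 CPM with bivalent 13-3B5 and at 86.9, 80.2, 74.2 and 56.1 CPM with agrin. With agrin + 13-3B5xb12 it was at 91.4, 86.3, 57.1 and 61.6 CPM, and with agrin + 11-3F6xb12 at 76.5, 93.3, 63.3 and 76.0 CPM. In all 5 treatments both of replicates 3 and 4 were below both of replicates 1 and 2. The means over the treatments were 85.2, 86.4, 62.3 and 60.5 CPM for numbers 1 to 4. All 10 libraries numbered 1 or 2 lay between 76.5 and 93.9 CPM and all 10 numbered 3 or 4 between 51.0 and 76.0 CPM, a log2 difference of -0.49. Such a separation of the libraries was found in 1.68% of all genes; this split was described after the levels had been seen.

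In a fit of treatment and replicate number, the test of all 4 numbers together gave Nid2 an adjusted p of 2.08e-05 (edgeR), and 7.19% of all genes passed the same test. Nid2 was the only 1 of the 10 members to pass. Without both libraries that stood apart its adjusted p was 2.16e-05. Lamc1 ran the other way, at means of 78.0, 79.9, 95.1 and 92.2 CPM for numbers 1 to 4 (adjusted p = 0.176), and at an adjusted p of 1.21e-06 without those libraries, of which control replicate 2 was its highest value. For the other 8 members the adjusted p was at least 0.438. The difference of agrin minus control was 0.01 for Nid2 (SE 0.22, 95% interval -0.45 to 0.48). What same-numbered libraries have in common is not given in the labels, so a day, a passage or a run of sequencing cannot be told apart.

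**Figure D4:**
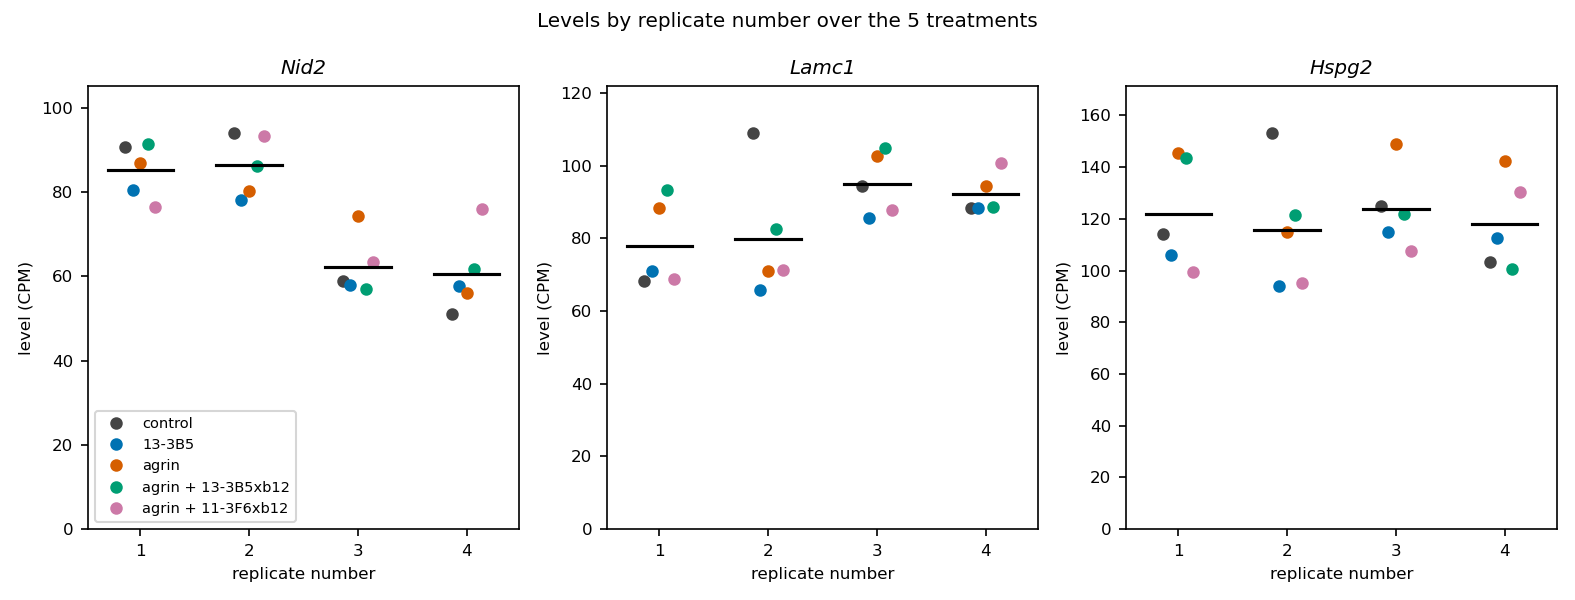
Levels (CPM) of Nid2, Lamc1 and Hspg2 by replicate number. Each point is a library, coloured by treatment, and the line is the mean of 5 treatments; Nid2 falls from means of 85.2 and 86.4 CPM for numbers 1 and 2 to 62.3 and 60.5 CPM for numbers 3 and 4, and Hspg2 shows no such step.

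Several other measurements moved with replicate number. Ckm, the muscle creatine kinase, was at a mean of 391 CPM in numbers 1 and 2 and 238 CPM in numbers 3 and 4 (edgeR, adjusted p = 6.09e-07). Tnnt3, a fast troponin T, was at 1661 and 1228 CPM (adjusted p = 1.28e-06). The rest of the 9 myotube markers, among them Myog, Acta1 and Des, did not pass the test. Their directions were mixed, with Myog at 564 and 597 CPM and Acta1 at 2368 and 2284 CPM. The summed myotube markers were at 8531 to 9430, 8422 to 9239, 7837 to 8887 and 7785 to 8592 CPM for numbers 1 to 4. Markers of dividing or undifferentiated myoblasts summed to 153 to 188, 149 to 216, 133 to 209 and 137 to 156 CPM, and none of them passed the test. Fibroblast markers summed to 745 to 1006, 769 to 949, 848 to 946 and 861 to 1037 CPM for numbers 1 to 4, nearly all of it Dcn; Col1a1 had means of 39.9 and 23.6 CPM in numbers 1 and 2 and in numbers 3 and 4 (adjusted p = 0.0720), and Pdgfra 18.2 and 15.1 CPM (adjusted p = 0.200). S100b, a marker of Schwann cells, was at 2.31 and 0.827 CPM (adjusted p = 0.00421). The part of maturation or of other cells in the Nid2 difference was not tested. Rtraf, which lies on the opposite strand and shares 437 exon bases with Nid2, was at 162 and 155 CPM in the same 2 sets of libraries (adjusted p = 0.937). Colq shares 199 exon bases on its own strand with the annotated gene Gm49387, and its counts are uncertain to that extent. On the opposite strand, Lama2 shares 631 exon bases with Gm48084 and Ache shares 98 with Gm42456. Whether reads of those genes entered the counts of Lama2 and Ache was not tested.

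Other genes of the basal lamina were read from a list of 35 that holds further laminin, nidogen and collagen genes, laminin receptors, matrix proteases and their inhibitors, of which 28 were tested. None of the 28 passed in any of the 8 treatment comparisons (edgeR), and at an unadjusted p under 0.05 the count was 0 or 1 of 28 in each. With replicate number, 6 of the 28 passed, beside 7.19% of all genes, and all 6 were higher in numbers 3 and 4, the direction opposite to Nid2. Of the 1050 genes that passed over the whole table, 39.3% were higher in numbers 3 and 4. The values of 5 of the 6 follow. Col18a1, the collagen that is the source of endostatin, had means of 25.1, 24.9, 38.7 and 35.1 CPM for numbers 1 to 4 (log2 difference 0.56, adjusted p = 2.00e-05). Itga6, a laminin receptor subunit, had 110, 112, 139 and 137 CPM (log2 difference 0.31, adjusted p = 5.40e-05), and Col4a5, a type IV collagen chain, rose by a log2 difference of 0.33 (adjusted p = 0.00281). Timp1, an inhibitor of matrix metalloproteinases, differed by 0.53 (adjusted p = 0.00331), and Itga7, the muscle laminin receptor subunit, by 0.15 (adjusted p = 0.0238). Nid1, the other nidogen, was at 71.3, 71.3, 75.9 and 71.3 CPM (adjusted p = 0.902). Lama1, Col4a3, Col4a4, Col4a6, Col15a1 and Bche did not pass the filter on low counts, with at most 19 counts in a library.

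After treatment and replicate number had been removed, the genes whose levels followed each of 3 members most closely over the 20 libraries were listed among 11149 genes with a mean log2 CPM above 1. Ache varied most like Mknk2 (Pearson r = 0.87, Spearman rho = 0.86) and Arfgap3 (0.85 and 0.89). Colq varied most like Pip4p1 (0.90 and 0.91), Gm4673 (0.85 and 0.86) and Zfyve27 (0.85 and 0.82). Lamb2 varied most like Smurf1 (0.88 and 0.83), Foxo3 (0.87 and 0.83) and Myh4 (0.86 and 0.83). These are the highest values of a long list over few libraries that share depth and scaling, and are given as a description.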

How the data were processed

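The deposited table holds the authors' whole-number counts per gene and library, not normalized, for 20 libraries of total RNA depleted of ribosomal RNA and made with a stranded kit, per the labels' protocols. The submitters' processing notes name Trim Galore 0.6.6, cutadapt 2.10, STAR 2.7.6a, HTSeq 0.12.4, DESeq2 1.32.0 and the build GRCm38; which step used which setting, the annotation release and the use of strand are not given in the sources used here. Of the 26722 gene IDs, 26667 were found in GENCODE M21 (GRCm38), the source of positions and lengths.

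The fit used edgeR 4.0.16 (R 4.3.3): filterByExpr (minimum count 10, minimum total 15), TMM scaling, and 1 robust quasi-likelihood model of treatment over all 20 libraries (15 residual degrees of freedom). F-tests were two-sided, with Benjamini-Hochberg adjustment over 14605 genes and a threshold of 0.05. SEs were derived from the log2 fold change and F. Replicate numbers come from the titles, and they were taken to pair libraries in the 4 comparisons where the deviations of every same-numbered pair correlated above 0.1. Replicate number was tested in a fit of treatment and number (12 residual degrees of freedom). Log2 CPM used a prior count of 2. Replicates differed by a chi-square of at least 5.17 per gene, more than sampling noise. The script was tested on simulated data.

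The members, lists and tests were chosen with earlier results of these data known. All 10 members were to be named whatever their values; log2 fold changes were to be printed for agrin against control and for unadjusted p under 0.05, and the 5 list genes with the smallest replicate-number p-values; Itga7, which also passed, was added after its value was seen. Some genes that these rules would name are not reported here. Other values of members, the chain shares, the length of the coding transcript, the split by replicate number and Rtraf were also chosen after values were seen. Alternatives were leaving out libraries or treatments, a replicate block, scaling by DESeq2 size factors, no filter, fits of both groups only, a length correction and DESeq2 1.42.0 with its Wald test.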

Additional observations from a re-analysis of the deposited data

Results flagged for a closer look

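Lama4 in bivalent 13-3B5 replicate 4 was at 31.3 CPM, beside 28.2 to 28.4 CPM in the other 3 libraries of that treatment, and its gap to them took up more of the group's range than the 0.829 that Dixon's test allows for 4 libraries. Of 50 groups (10 members in 5 treatments) it was the 1 that stood out in this way, where chance gives about 1 in 20 groups, or 2.5.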

How the results depend on the processing

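The count of members passing between treatments was 0 in every comparison under all 145 combinations of comparison and setting that were run. In agrin minus control, leaving out 1 library at a time moved the log2 fold change across 0 for 7 members that were near it: Lama2 ran from -0.12 to 0.0033, Lama5 from -0.087 to 0.055, Lamb1 from -0.022 to 0.12, Lamb2 from -0.0017 to 0.10, Lamc1 from -0.13 to 0.091, Nid2 from -0.13 to 0.15 and Ache from -0.029 to 0.46. Hspg2 remained below 0 in bivalent 13-3B5 minus agrin (-0.45 to -0.31) and in agrin + 11-3F6xb12 minus agrin (-0.45 to -0.29), as did Lamb1 between both monovalent antibodies (-0.34 to -0.16). For Lama4, Hspg2 and Colq the direction of agrin minus control did not turn when a library was left out (Hspg2 0.076 to 0.27, Colq 0.11 to 0.84), nor did agrin + 13-3B5xb12 minus agrin for Hspg2 (-0.27 to -0.099) or Ache (-1.53 to -1.02); the last 2 were added after their values were seen.

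Libraries of the same replicate number correlated above 0.1 in 33 of 40 pairs (r from 0.01 to 0.38), and 11 of 20 libraries were on average closest to those of their own number. All 4 same-numbered pairs were above 0.1 in bivalent 13-3B5 against control and against agrin and in both monovalent groups against agrin, and not in the other 4 comparisons. With the replicate block, genes passing moved from 0 to 2 in agrin + 11-3F6xb12 against agrin, 3 against control, 5 between both monovalent antibodies and 2 for any treatment. With the replicate block and without both libraries that stood apart, they moved from 0 to 1 for agrin + 13-3B5xb12 against agrin and 1 against control, to 17 for agrin + 11-3F6xb12 against agrin and 5 against control, to 16 between both monovalent antibodies and to 5 for any treatment; Lama5 turned to 0.059 and Lamc1 to 0.16 in agrin minus control. With the replicate block and a length correction, the counts were 1 for agrin + 11-3F6xb12 against agrin, 3 against control, 12 between both and 2 for any treatment, and Lamc1 was at 3.4e-05. With no filter on low counts, 4 genes passed for agrin against control, 2 for bivalent 13-3B5 against control, 7 for bivalent 13-3B5 against agrin, 6 and 3 for agrin + 13-3B5xb12 against agrin and against control, 13 and 13 for agrin + 11-3F6xb12, 27 between both monovalent antibodies and 50 for any treatment. DESeq2's Wald test called 2 genes between both monovalent antibodies. The cause was not tested for any of these counts.

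For replicate number, genes passing were 1762 without both libraries that stood apart and 672 without the bivalent treatment, where fewer libraries entered the fit. Members passing were 2 instead of 1 (Nid2 and Lamc1) with no filter (adjusted p for Lamc1 0.00112), with the length correction (0.0101), without both libraries that stood apart (1.21e-06) and without the control treatment (0.00147). The adjusted p of Nid2 ran from 5.18e-15 with no filter to 0.00151 without the bivalent treatment. Mean levels moved by less than 1 SD with DESeq2 size factors for all 50 groups. Depth limits Ache, with at most 34 counts in a library, and Colq.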
